A study of Mus musculus with 6 samples.

Results

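Skeletal muscle contractile and metabolic genes were followed in 6 mouse tumours as a group of 33 protein-coding genes, out of 55450 genes in the count table. The members were chosen by name as components of the muscle sarcomere, its calcium system and its fuel supply, and each name matched 1 protein-coding row in both deposited tables. The tumours grew in C57BL/6 mice, under the skin of the flank, from MTE-Ras cells, a single line of mouse tracheal epithelial cancer cells that carries an oncogenic RAS mutation and is shared by both groups. Of the tumours 3 were injected with PV-10, a solution of the dye rose bengal given into the lesion, and the other 3 with PBS. The labels give no dose, no time between injection and collection, and no age or sex of the mice. The labels do not say that each tumour came from a separate mouse, so p-values measure the spread between these tumours alone.

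Skeletal muscle contracts when calcium, released from the sarcoplasmic reticulum, binds troponin on the actin filament and lets myosin heads pull on it. Fast and slow fibres build this machine from different genes: each type has its own myosin heavy chains and its own troponins T, I and C, and further heavy chains serve the embryo and the newborn or regenerating fibre. Among adult mouse fast fibres, Myh2, Myh1 and Myh4 encode the heavy chains of types IIa, IIx and IIb. Below the flank skin of a mouse lies a thin sheet of striated muscle, the panniculus carnosus. The labels do not say whether muscle was taken along with any tumour.

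The genes for the fast and developmental heavy chains lie side by side on chromosome 11 of mm10, each on the plus strand. Myh3 spans 67078300 to 67102291, Myh2 67171027 to 67197517, Myh1 67200052 to 67224575, Myh4 67238029 to 67260446 and Myh8 67277124 to 67308634. The tumours differed in which of the 3 adult fast genes was most abundant, so the 250 bases before their RefSeq starts (GRCm38.p6, plus strand, 5′ to 3′) are shown here. Capitals mark E-boxes (CANNTG), TATA boxes (TATAAA) and MEF2 sites, searched on both strands.

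Myh2 promoter, chr11:67170777-67171026: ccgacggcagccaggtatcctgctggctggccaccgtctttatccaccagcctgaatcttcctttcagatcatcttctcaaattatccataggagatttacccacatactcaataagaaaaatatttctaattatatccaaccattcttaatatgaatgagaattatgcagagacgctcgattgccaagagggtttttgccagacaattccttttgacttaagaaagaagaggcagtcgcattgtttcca
Myh1 promoter, chr11:67199852-67200101: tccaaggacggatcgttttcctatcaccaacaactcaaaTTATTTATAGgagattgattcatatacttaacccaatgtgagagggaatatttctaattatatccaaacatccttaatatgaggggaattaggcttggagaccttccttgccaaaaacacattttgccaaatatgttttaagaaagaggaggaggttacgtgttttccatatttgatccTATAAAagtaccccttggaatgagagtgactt
Myh4 promoter, chr11:67237562-67237811: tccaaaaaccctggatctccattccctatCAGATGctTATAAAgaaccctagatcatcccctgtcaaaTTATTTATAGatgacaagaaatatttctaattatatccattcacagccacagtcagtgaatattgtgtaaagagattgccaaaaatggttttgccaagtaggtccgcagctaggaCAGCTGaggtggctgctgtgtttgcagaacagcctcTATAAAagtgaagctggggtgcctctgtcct

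The Myh4 window held E-boxes at 221 and 67 bases before the start, TATA boxes at 213, 179 and 31 bases and a MEF2 site at 182 bases. The Myh1 window held TATA boxes at 208 and 32 bases and a MEF2 site at 211 bases. In both genes 1 of the TATA matches overlaps the MEF2 match. No match to any of these letters was found in the Myh2 window. Promoters of 27 members were in the RefSeq table: 23 held an E-box, 7 a TATA box and 6 a MEF2 site. Of all 27025 promoters of this length, 66.0% held an E-box, 13.0% a TATA box and 3.01% a MEF2 site.

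Most of the 33 genes were scarce, and their levels set single tumours apart more than they set PV-10 apart from PBS tumours. The members summed to 130 TPM, an abundance corrected for gene length and library size, in PV-10 tumour 1, 292 in PV-10 tumour 2 and 73.0 in PV-10 tumour 3, against 98.6, 76.2 and 76.5 TPM in PBS tumours 1, 2 and 3. A single member, Eno3, made up 62.3%, 23.7% and 89.0% of these sums in the PV-10 tumours, and 61.0%, 82.5% and 87.1% in the PBS tumours. Without it the other 32 genes summed to 48.8, 223 and 8.02 TPM in PV-10 tumours 1, 2 and 3, against 38.5, 13.3 and 9.86 TPM in PBS tumours 1, 2 and 3. PV-10 tumours 2 and 1 and PBS tumour 1 were thus the high tumours, PV-10 tumour 3 was the lowest of all 6, and the groups overlapped. The mean of this sum was 93.3 ± 114 TPM in PV-10 tumours and 20.6 ± 15.6 TPM in PBS tumours (SD, n = 3 each). By TPM, 23 of the 33 members were highest in PV-10 tumour 2, 7 in PBS tumour 1, 2 in PV-10 tumour 1 and 1 in PBS tumour 2. In bulk RNA, fewer cells of a type and less RNA per cell cannot be told apart.

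**Figure D1:**
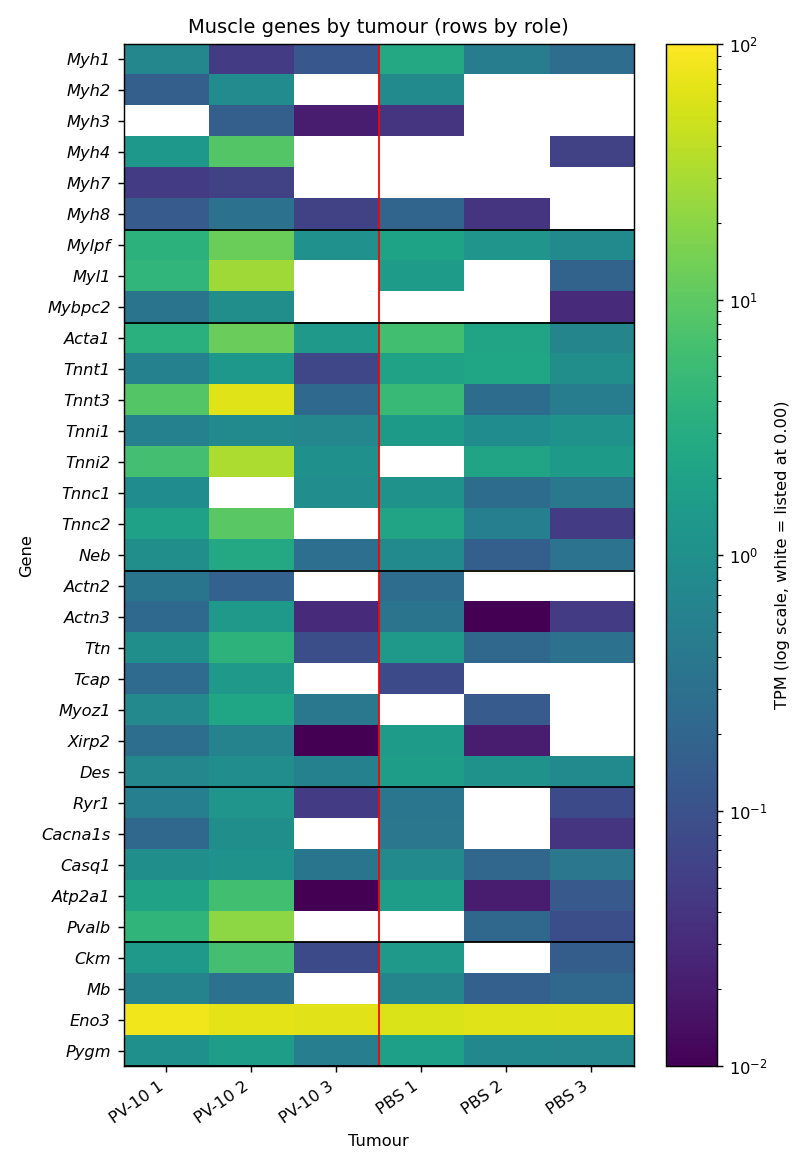
Level of each of the 33 muscle genes (rows, grouped by role with black lines) in each tumour (columns, PV-10 left and PBS right of the red line), as TPM on a log colour scale with white for a listed 0. Eno3 is bright in all 6 tumours, and most of the other rows are brightest in PV-10 tumour 2.

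Total counts ran from 36730318 to 98717951 per tumour, and PV-10 tumours 1 and 2 were the shallowest. These 2 tumours also held reads on genes that are silent outside the nose: of 1093 olfactory receptor genes, 91.4%, 64.8% and 23.6% had a count in PV-10 tumours 1, 2 and 3, against 10.2%, 20.8% and 14.4% in PBS tumours 1, 2 and 3. The 95th percentile of these silent genes was 0.31, 0.524 and 0.1 TPM in the PV-10 tumours, against 0.054, 0.11 and 0.03 TPM in the PBS tumours. Above that level stood 25, 26 and 13 of the 33 muscle genes in PV-10 tumours 1, 2 and 3, and 26, 18 and 24 in PBS tumours 1, 2 and 3. The part of this background in the differences below was not tested. The cytokeratin genes Krt8 and Krt18, which mark simple epithelium, lay at 36.2 to 91.7 TPM and 97.4 to 170 TPM in PV-10 tumours, against 129 to 164 TPM and 181 to 219 TPM in PBS tumours. In counts scaled to library size the log2 change was -0.71 for Krt8 (edgeR adjusted p = 0.175) and 0.05 for Krt18 (edgeR adjusted p = 0.91). The epithelial adhesion genes Epcam and Cdh1 reached at most 0.54 and 2.53 TPM.

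**Figure D2:**
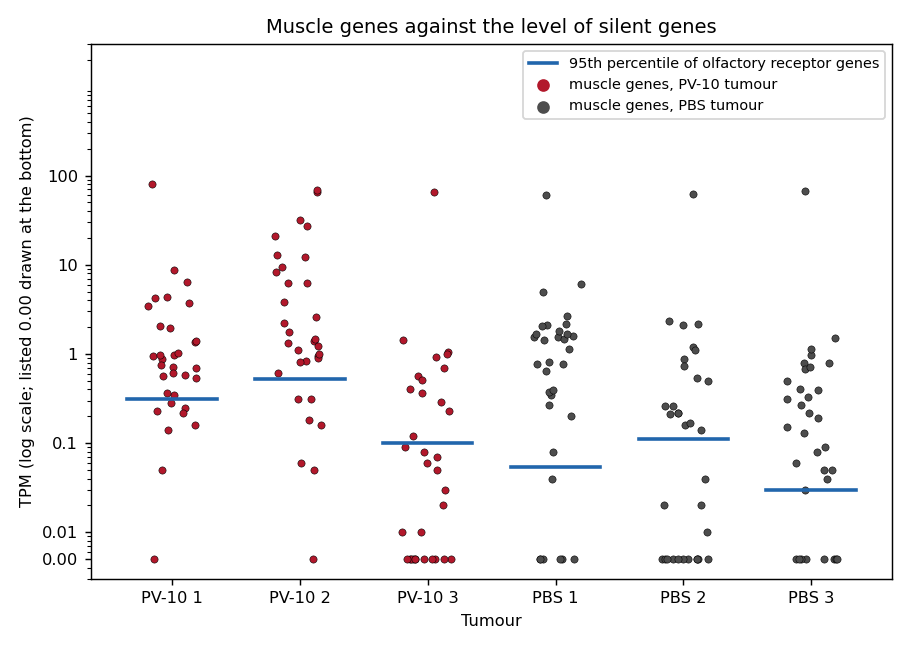
Level of the 33 muscle genes in each tumour (points, TPM on a log axis, PV-10 tumours at left) beside the 95th percentile of 1093 olfactory receptor genes (blue bar), with listed zeros at the bottom. The blue bar is highest in PV-10 tumour 2, at 0.524 TPM, and several muscle genes lie more than 10 TPM above it there.

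Of the 33 members 31 passed the expression filter and were tested, and none was called at an adjusted p under 0.05 (edgeR quasi-likelihood test), whereas 5.09% of all 22056 tested genes were called, 3.17% higher and 1.92% lower. The lowest edgeR adjusted p was 0.0443 over all genes and 0.0641 among the members. Every call thus lay between 0.0443 and 0.05, and the contrast with the members rests on a narrow margin. At an unadjusted p under 0.05, 9 members were higher and 0 lower in PV-10 tumours, against 15.6% higher and 14.5% lower over all genes. In 26 of the 31 the log2 change was above 0, as in 58.5% of all tested genes, and the members' median log2 change was 1.93 against 0.30 over all genes. In DESeq2, scaled to its own size factors over 27568 genes, these medians were 2.09 and 1.86. With DESeq2 size factors in edgeR, over the same 22056 genes, they were 2.07 and 0.43. With no low-count filter in edgeR, over 39195 genes, they were 1.99 and 1.63. The median over all genes thus moved with the set of genes tested more than with these size factors. The PV-10 tumours lay wholly above the PBS tumours in CPM, counts scaled to library size, for 2 members, Eno3 and Myoz1, against 22.0% of all genes, and wholly below for 0, against 16.8%. In 12 of the 31, PV-10 tumours 1 and 2 exceeded every PBS tumour in TPM and PV-10 tumour 3 did not, a pattern chosen after the values were seen that 10.2% of all tested genes shared. Left without PV-10 tumour 3, the test called 13 of 33 members (39.4%), all higher, but also 41.4% of all genes, 25.0% higher. With a mean count of at least 50 it called Mylpf, Pvalb and Eno3, where 10.1% of all genes were called higher, and with protein-coding genes alone Mylpf and Eno3, where 9.48% were. The sign of the log2 change turned under 1 or more alternatives for Myh1, Myh2, Myh3, Tnnt1, Tnni1, Tnnc1, Ttn, Xirp2, Des, Cacna1s and Mb. The log2 changes of these 11 are given as estimates, and no direction is drawn from them. Among them Myh3, Tnni1, Tnnc1, Ttn, Cacna1s and Mb count in the 26 above 0.

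**Figure D3:**
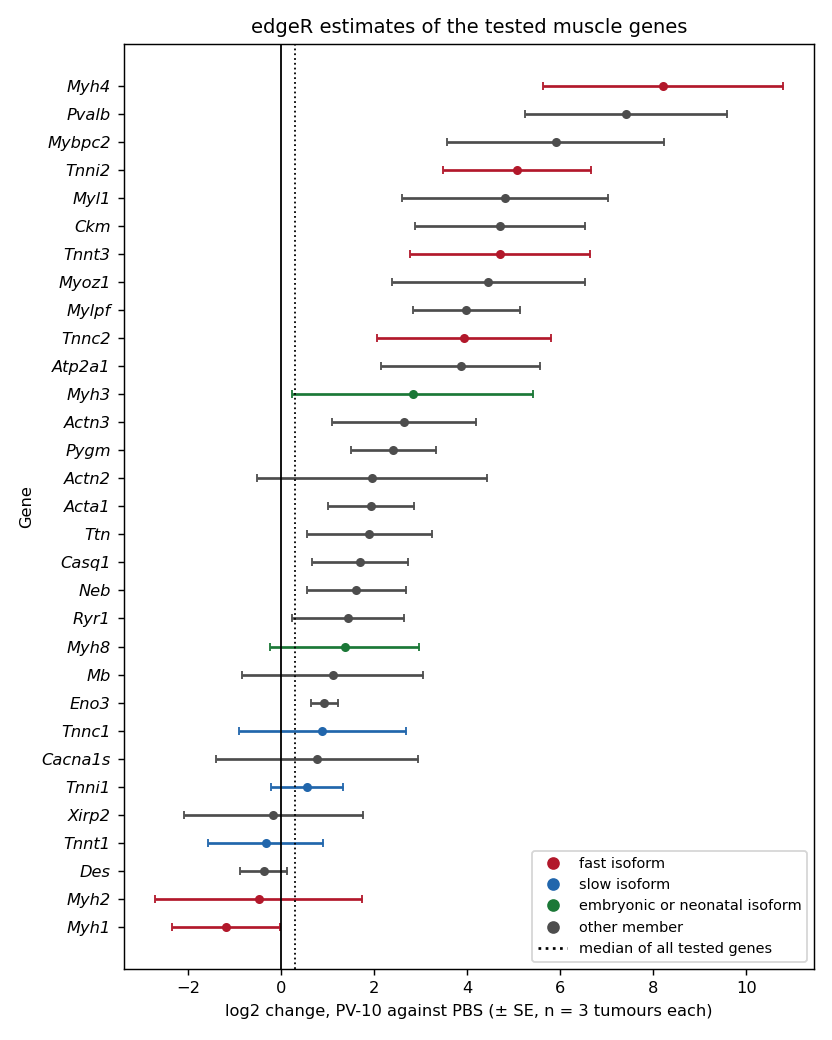
Estimated log2 change of each tested muscle gene, PV-10 against PBS (points, edgeR, with SE bars, n = 3 tumours each), coloured by isoform type, beside 0 (solid line) and the median of all tested genes at 0.30 (dotted line). Most points lie right of both lines with long error bars, and Myh1, whose sign turned without PBS tumour 1, lies furthest left.

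The myosin heavy chains, the motor proteins of the thick filament, differed between tumours in kind as well as in amount. Myh4, the type IIb chain, was at 1.36, 8.40 and 0 TPM in PV-10 tumours 1, 2 and 3, against 0, 0 and 0.06 TPM in PBS tumours 1, 2 and 3. Its counts were 1103, 4011 and 0 in the PV-10 tumours, against 0, 0 and 43 in the PBS tumours. PV-10 tumours 1 and 2 stood above every other tumour and PV-10 tumour 3 had no read, and the log2 change of 8.21 (SE 2.58) did not pass (edgeR adjusted p = 0.0813). Without PBS tumour 3 it was 14.59, a size that depends on the prior count, since both remaining PBS tumours had 0 counts. Myh1, the type IIx chain, showed another order, with 0.72, 0.05 and 0.12 TPM in PV-10 tumours 1, 2 and 3, against 2.63, 0.50 and 0.27 TPM in PBS tumours 1, 2 and 3. PBS tumour 1 was highest and PV-10 tumour 2, the richest in Myh4, was lowest, at 22 counts. Its log2 change was -1.20 (SE 1.16, edgeR adjusted p = 0.511), which was called with replicate number as a block (-1.55, edgeR adjusted p = 0.0271) and turned to 0.61 without PBS tumour 1.

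Myh2, the type IIa chain, was at 0.16, 0.84 and 0 TPM in PV-10 tumours 1, 2 and 3, against 0.78, 0 and 0 TPM in PBS tumours 1, 2 and 3. It was thus at a like level in PV-10 tumour 2 and PBS tumour 1 and had no read in 3 tumours, and its log2 change of -0.49 (SE 2.23) was 9.86 without PBS tumour 1, not called in either case. With both remaining PBS tumours at 0 counts, the size of that value depends on the prior count. The slow chain Myh7 had 25, 28 and 0 counts in the PV-10 tumours and none in any PBS tumour, and it was not tested for want of counts. The embryonic chain Myh3 reached at most 0.16 TPM and the neonatal chain Myh8 at most 0.31 TPM, both in PV-10 tumour 2. Myh7 and Myh3 lay under the silent-gene level in each tumour, and Myh8 exceeded it in PBS tumour 1 alone, at 0.20 TPM. Of the summed heavy chain TPM, Myh4 made up 56.0%, 85.5% and 0% in PV-10 tumours 1, 2 and 3, against 0%, 0% and 18.2% in PBS tumours 1, 2 and 3. Myh1 made up 29.6%, 0.509% and 60.0% in the PV-10 tumours, against 72.1%, 92.6% and 81.8% in the PBS tumours. The totals behind these shares were small in PV-10 tumour 3, PBS tumour 2 and PBS tumour 3, at 0.20, 0.54 and 0.33 TPM. The chains resemble each other: 9.73% of the 100-base windows of the longest Myh1 transcript, 9.17% of those of Myh2 and 3.85% of those of Myh4 also occur in transcripts of other genes, so some reads could be shared among them.

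**Figure D4:**
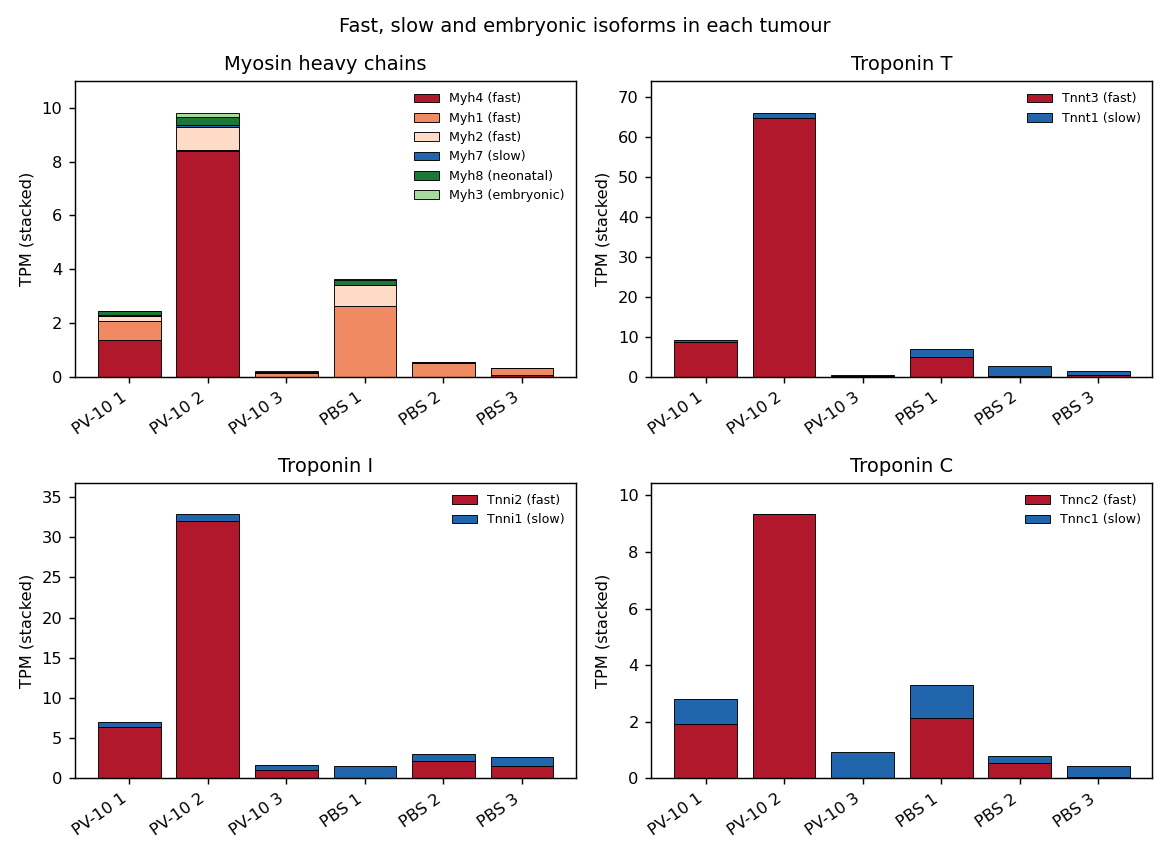
Stacked TPM of the fast (red shades), slow (blue) and embryonic or neonatal (green) members of 4 protein families in each tumour, PV-10 tumours at left; the vertical scale differs between panels. PV-10 tumour 2 is tallest in each panel, with Myh4, Tnnt3, Tnni2 and Tnnc2 filling most of its bars, while the PBS tumour 1 bar of heavy chains is mainly Myh1.

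The 3 fast troponins were, as Myh4, highest in PV-10 tumour 2, and they differed from each other in PBS tumour 1. Tnnt3, the fast troponin T that ties the complex to tropomyosin, was at 8.65, 64.7 and 0.23 TPM in PV-10 tumours 1, 2 and 3, against 4.90, 0.26 and 0.50 TPM in PBS tumours 1, 2 and 3 (log2 change 4.70, SE 1.93, edgeR adjusted p = 0.15). Tnni2, the fast inhibitory troponin I, was at 6.41, 32.0 and 1.00 TPM in PV-10 tumours 1, 2 and 3, against 0, 2.14 and 1.51 TPM in PBS tumours 1, 2 and 3 (log2 change 5.07, SE 1.59, edgeR adjusted p = 0.0777). PBS tumour 1, the PBS tumour with the most Tnnt3, thus had 0 counts of Tnni2. Tnnc2, the fast troponin C that binds calcium, was at 1.93, 9.33 and 0 TPM in the PV-10 tumours, against 2.15, 0.53 and 0.05 TPM in the PBS tumours (log2 change 3.92, SE 1.87, edgeR adjusted p = 0.192). Ube2c, a gene on the opposite strand, covers 74.0% of the exon bases of Tnnc2, and the sources used here do not say whether counting used the strand, so low Tnnc2 values are uncertain. The same holds for low values of Mb, Atp2a1, Cacna1s and Ckm. Genes on the opposite strand cover up to 31.9%, 21.9%, 20.0% and 15.5% of their exon bases, in that order. Without PV-10 tumour 2 the log2 changes were 2.36 for Tnnt3, 3.28 for Tnni2 and 2.03 for Tnnc2, and without PBS tumour 1 they were 7.27, 4.45 and 6.54 in that order.

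The slow troponins stayed under 2.5 TPM in every tumour and none was called. Tnnt1, the slow troponin T, was at 0.58, 1.34 and 0.07 TPM in PV-10 tumours 1, 2 and 3, against 2.04, 2.36 and 0.96 TPM in PBS tumours 1, 2 and 3 (log2 change -0.34, SE 1.24, edgeR adjusted p = 0.874). Tnni1, the slow troponin I, was at 0.57, 0.81 and 0.70 TPM in the PV-10 tumours, against 1.53, 0.87 and 1.13 TPM in the PBS tumours. It was lower in each PV-10 than in each PBS tumour in TPM, but the groups overlapped in CPM. Its log2 change in scaled counts was 0.55 (SE 0.78, edgeR adjusted p = 0.661). TPM leaned lower over all tested genes, with a median log2 change of -0.21 by limma on log2(TPM + 1). The share of all genes wholly lower in TPM was not counted. Tnnc1, the troponin C of slow and cardiac muscle, was at 0.88, 0 and 0.93 TPM in the PV-10 tumours, against 1.14, 0.26 and 0.40 TPM in the PBS tumours (log2 change 0.88, SE 1.79, edgeR adjusted p = 0.766). The PV-10 tumour with the most fast troponin C therefore had no read of the slow one. Cardiac troponin T, Tnnt2, which is no member, was more abundant in each tumour than Tnnt1 or Tnnt3, at 51.2, 103 and 125 TPM in PV-10 tumours 1, 2 and 3, against 118, 241 and 183 TPM in PBS tumours 1, 2 and 3 (log2 change -0.13, SE 0.31, edgeR adjusted p = 0.793).

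Summed over families, the 6 fast genes reached 19.2, 115 and 1.35 TPM in PV-10 tumours 1, 2 and 3, against 10.5, 3.43 and 2.39 TPM in PBS tumours 1, 2 and 3. The 4 slow genes reached 2.08, 2.21 and 1.70 TPM in the PV-10 tumours, against 4.71, 3.49 and 2.49 TPM in the PBS tumours. The 2 embryonic and neonatal genes reached 0.14, 0.47 and 0.08 TPM in the PV-10 tumours, against 0.24, 0.04 and 0 TPM in the PBS tumours. Fast genes thus ranged widely and without a gap between groups, whereas each slow sum was lower in the PV-10 than in the PBS tumours in TPM. In CPM the slow sums overlapped, at 3.92, 4.52 and 1.86 in PV-10 tumours 1, 2 and 3, against 4.22, 1.499 and 1.52 in PBS tumours 1, 2 and 3. The fast share of the 3 sums was 89.7%, 97.7% and 43.1% in PV-10 tumours 1, 2 and 3, against 67.9%, 49.3% and 49.0% in PBS tumours 1, 2 and 3. PV-10 tumour 3 had the lowest share and the other PV-10 tumours the highest. The group means, 76.8 ± 29.5% in PV-10 and 55.4 ± 10.8% in PBS tumours (SD, n = 3 each), were 21.5 percentage points apart, a gap smaller than the spread within the PV-10 tumours. In CPM the means were 75.1 ± 32.7% and 74.2 ± 8.43%, 0.845 points apart. Among the tested genes, log2 changes ran from -1.20 to 8.21 for the 6 fast, from -0.34 to 0.88 for 3 slow, and were 1.36 and 2.82 for the neonatal and embryonic chains. The sign turned under 1 or more alternatives for Myh1, Myh2, the 3 slow genes and the embryonic chain Myh3.

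The other thick filament genes belong to fast fibres. Myl1, the alkali light chain of fast myosin, was at 4.30, 27.2 and 0 TPM in PV-10 tumours 1, 2 and 3, against 1.56, 0 and 0.19 TPM in PBS tumours 1, 2 and 3 (log2 change 4.81, SE 2.22, edgeR adjusted p = 0.191). Mylpf, the regulatory light chain, was at 3.77, 12.7 and 1.05 TPM in the PV-10 tumours, against 2.10, 1.20 and 0.79 TPM in the PBS tumours. It had the lowest adjusted p of any member (log2 change 3.98, SE 1.16, edgeR adjusted p = 0.0641). In TPM PV-10 tumour 3 lay among the PBS tumours for Mylpf, whereas in counts, at 20 against 53, 43 and 35 in PBS tumours 1, 2 and 3, it was below them. Without PV-10 tumour 2 the log2 changes were 2.62 for Myl1 and 2.38 for Mylpf, and without PBS tumour 1 that of Myl1 was 7.41. Mybpc2, fast myosin binding protein C, was detected in PV-10 tumours 1 and 2 and PBS tumour 3 alone, at 0.35, 0.94 and 0.03 TPM (log2 change 5.90, SE 2.34, edgeR adjusted p = 0.126). Without PBS tumour 3 its log2 change was 10.33, a size that depends on the prior count, since no read is left in PBS tumours.

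Skeletal actin and the giant scaffold proteins, which all fibre types use, were also found in PBS tumours. Acta1, the skeletal alpha-actin of the thin filament, was at 3.45, 12.3 and 1.44 TPM in PV-10 tumours 1, 2 and 3, against 6.11, 2.13 and 0.67 TPM in PBS tumours 1, 2 and 3 (log2 change 1.93, SE 0.92, edgeR adjusted p = 0.193). Ttn, the elastic filament titin that links the Z disc to the thick filament, was at 0.97, 3.81 and 0.09 TPM in the PV-10 tumours, against 1.47, 0.22 and 0.31 TPM in the PBS tumours (log2 change 1.89, SE 1.34, edgeR adjusted p = 0.376). For both, PV-10 tumour 2 was highest, followed by PBS tumour 1 in TPM and by PV-10 tumour 1 in CPM. Without PV-10 tumour 2 the log2 changes were 0.66 for Acta1 and 0.55 for Ttn, and without PBS tumour 1 they were 3.07 and 3.32 in that order. Neb, the thin filament ruler nebulin, ranged from 0.29 to 2.57 TPM in PV-10 and from 0.16 to 0.78 TPM in PBS tumours.

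The other Z disc genes were mostly under 1 TPM, and the tumour with the highest level differed from gene to gene. Xirp2, an actin-binding protein of muscle attachment sites, had 459, 585 and 23 counts in PV-10 tumours 1, 2 and 3, against 2362, 20 and 4 counts in PBS tumours 1, 2 and 3 (log2 change -0.17, SE 1.93, edgeR adjusted p = 0.961). PBS tumour 1 was the highest for this gene, also in TPM, at 1.59. Myoz1, a calcineurin-binding protein of fast fibres, was at 0.75, 2.22 and 0.40 TPM in the PV-10 tumours, against 0, 0.14 and 0 TPM in the PBS tumours. The groups did not overlap for Myoz1, from counts of 76, 67 and 31 in PV-10 against 0, 15 and 0 in PBS tumours (log2 change 4.45, SE 2.07, edgeR adjusted p = 0.184). Limma on log2(TPM + 1) and on log2(TPM + 0.1) called it, at adjusted p = 0.0436 and 0.0287. Without PBS tumour 2, the 1 PBS tumour with reads, its log2 change in scaled counts was 9.42, again dependent on the prior count. Des, the intermediate filament desmin that smooth muscle also makes, was at 0.57 to 0.90 TPM in PV-10 and 0.80 to 1.68 TPM in PBS tumours (log2 change -0.38, SE 0.51). Actn3, the fast fibre alpha-actinin, was at most 1.40 TPM and Actn2, its counterpart in all fibres, at most 0.36 TPM. Tcap, which caps titin, had 27, 94 and 0 counts in the PV-10 tumours against 8, 0 and 0 in the PBS tumours and was not tested.

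The 5 calcium handling genes were each highest in PV-10 tumour 2, and none was called. Pvalb, the calcium buffer parvalbumin of fast fibres, was at 4.21, 20.97 and 0 TPM in PV-10 tumours 1, 2 and 3, against 0, 0.22 and 0.09 TPM in PBS tumours 1, 2 and 3 (log2 change 7.42, SE 2.17, edgeR adjusted p = 0.0701). Atp2a1, the calcium pump SERCA1 that refills the store, was at 2.05, 6.17 and 0.01 TPM in the PV-10 tumours, against 1.67, 0.02 and 0.13 TPM in the PBS tumours (log2 change 3.86, SE 1.71, edgeR adjusted p = 0.174). PBS tumour 1 lay near PV-10 tumour 1 for Atp2a1 in TPM, though not in CPM, at 2.54 against 10.7. It had no read of Pvalb. Ryr1, the release channel, Cacna1s, its voltage sensor, and Casq1, the store's calcium-binding protein, had log2 changes of 1.43, 0.76 and 1.69, none called. That of Cacna1s turned sign under some alternatives. Without PV-10 tumour 2 the log2 change of Atp2a1 was 2.34, and that of Ryr1 0.36. The highest levels of the 3 release genes were 1.22, 0.99 and 1.10 TPM, each in PV-10 tumour 2.

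Among the metabolic genes Eno3 behaved unlike the rest. Eno3, the muscle-type subunit of the glycolytic enzyme enolase, was at 80.7, 69.3 and 64.9 TPM in PV-10 tumours 1, 2 and 3, against 60.1, 62.9 and 66.7 TPM in PBS tumours 1, 2 and 3. PV-10 tumour 3, with few other muscle transcripts, had as much as the PBS tumours. In scaled counts it averaged 179 ± 45.8 CPM in PV-10 and 94.5 ± 10.9 CPM in PBS tumours (SD, n = 3 each; log2 change 0.92, SE 0.29, edgeR adjusted p = 0.0719). The groups did not overlap in CPM but did in TPM, where limma on log2(TPM + 1) gave a log2 change of 0.17 (adjusted p = 0.692). With the trend with effective length (counts over TPM) removed, the log2 change in scaled counts was 0.25 (SE 0.38, edgeR adjusted p = 0.704). The enolase gene Eno1, active in most cells, was at 101, 131 and 257 TPM in PV-10 tumours, against 379, 451 and 368 TPM in PBS tumours. It was not called in scaled counts (log2 change -0.60, SE 0.31, edgeR adjusted p = 0.224).

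Ckm, muscle creatine kinase, which buffers ATP, was at 1.39, 6.27 and 0.08 TPM in PV-10 tumours 1, 2 and 3, against 1.42, 0 and 0.15 TPM in PBS tumours 1, 2 and 3 (log2 change 4.70, SE 1.82, edgeR adjusted p = 0.127). PBS tumour 1 lay near PV-10 tumour 1 in TPM, and PBS tumour 2 had no read. Pygm, the muscle glycogen phosphorylase, was at 1.03, 1.75 and 0.51 TPM in the PV-10 tumours, against 1.79, 0.73 and 0.71 TPM in the PBS tumours (log2 change 2.41, SE 0.92, edgeR adjusted p = 0.116). In TPM the highest Pygm value was thus that of PBS tumour 1, and limma on log2(TPM + 1) gave a log2 change of 0.01. Without PV-10 tumour 2 the log2 change in scaled counts was 0.95 for Pygm and 2.71 for Ckm, and without PBS tumour 1 that of Ckm was 7.48. Mb, the oxygen store myoglobin of oxidative fibres, was at most 0.65 TPM and had no read in PV-10 tumour 3 (log2 change 1.10, SE 1.95).

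Other genes of muscle were read from lists that held no member apart from Des among the smooth muscle genes. Of 37 further striated muscle genes 27 were tested, 0 were called and 24 had a log2 change above 0, with a median of 1.29. Over all tested genes 5.09% were called, 58.5% had a log2 change above 0, and the median was 0.30. This striated muscle list summed to 8.47 to 22.05 TPM in PV-10 and 12.46 to 17.44 TPM in PBS tumours, so the groups overlapped. The neuromuscular junction list had 0 of 9 tested genes called and a median of 0.51, and muscle metabolism 0 of 12 and a median of 1.67. In the metabolism list Gys1, a glycogen synthase of muscle and other tissues, was the most abundant, at 1.77, 2.52 and 5.01 TPM in PV-10 tumours, against 8.13, 13.7 and 11.8 TPM in PBS tumours (log2 change -1.21, SE 0.35, edgeR adjusted p = 0.0622). Its PV-10 tumours lay wholly below its PBS tumours in TPM. Cox7a1, a heart and muscle subunit of cytochrome oxidase, was at 8.24, 12.4 and 4.59 TPM in PV-10 tumours, against 8.20, 2.49 and 2.68 TPM in PBS tumours. Fbxo32, a ubiquitin ligase of muscle atrophy, was at 1.44, 2.99 and 3.92 TPM in PV-10 tumours, against 5.73, 7.57 and 4.50 TPM in PBS tumours. It led the striated muscle list in level, and in TPM each PV-10 tumour was below each PBS tumour (log2 change -0.36, SE 0.32, edgeR adjusted p = 0.484). In counts the groups overlapped for Fbxo32, with 3847 in PV-10 tumour 3 against 3687 in PBS tumour 3. The share of all genes wholly lower in TPM, as Gys1 and Fbxo32 were, was not counted.

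Regulators of the muscle lineage were scarce apart from Mef2c. Of 13 genes for myogenic regulators and satellite cells 7 were tested, 0 were called and 1 had a log2 change above 0, with a median of -0.60. Mef2c, a transcription factor of muscle, endothelium and other tissues, was at 5.41, 5.36 and 12.4 TPM in PV-10 tumours 1, 2 and 3, against 14.4, 22.3 and 17.7 TPM in PBS tumours 1, 2 and 3 (log2 change -0.60, SE 0.30, edgeR adjusted p = 0.211). The satellite cell factor Pax7 had 102, 23 and 0 counts and the fibre regulator Myf6 69, 67 and 0 counts in PV-10 tumours 1, 2 and 3, and neither had a read in any PBS tumour. The median olfactory receptor gene had 32, 17 and 0 counts in these PV-10 tumours. Myogenin, Myog, had 21, 23 and 0 counts there and 0 counts in all PBS tumours. In PV-10 tumours 1 and 2 Myf6, at 0.45 and 0.75 TPM, lay above the 95th percentile of the silent genes, while Pax7 and Myog lay below it.

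The lists for other tissues and for kin genes held 2 called genes, Tnmd and Myh9, where 3.17% of all tested genes were called higher and 1.92% lower. Among 10 adipocyte genes 0 of 5 tested were called (median log2 change 1.49), the summed level was 6.33 to 9.58 TPM in PV-10 and 6.13 to 9.59 TPM in PBS tumours, and the defining gene Adipoq was at 0 TPM in 5 tumours and 0.68 TPM in PV-10 tumour 2. Among 7 tendon genes 1 of 7 tested was called higher, the tenomodulin gene Tnmd, at 5.77, 0.93 and 0.1 TPM in PV-10 tumours 1, 2 and 3, from 965, 90 and 17 counts, against 0 counts in all PBS tumours (edgeR adjusted p = 0.0443). In PV-10 tumour 3 the 0.1 TPM of Tnmd only equalled the 95th percentile of the silent genes. The tendon sum was 6.53 to 19.9 TPM in PV-10 and 7.40 to 7.99 TPM in PBS tumours, highest in PV-10 tumour 1 and not in tumour 2. Among 10 epidermal and hair follicle genes 0 of 8 tested were called (median 2.50), with sums of 7.52 to 10.6 TPM in PV-10 and 3.58 to 6.23 TPM in PBS tumours. Smooth muscle genes had 0 of 10 called and a median of -0.04, with sums of 104 to 162 TPM in PV-10 and 189 to 415 TPM in PBS tumours, led by the actin gene Acta2. Of 12 cardiac genes 0 of 10 tested were called (median 1.71), with sums of 55.1 to 132 TPM in PV-10 and 131 to 255 TPM in PBS tumours that were mostly Tnnt2. Of 18 kin of the members, among them Casq2, Nebl and Xirp1 that striated muscle also uses, 1 fell, the non-muscle myosin Myh9 (log2 change -2.06, edgeR adjusted p = 0.0443), and 4 had a log2 change above 0. The part of these tissues in the muscle gene levels was not tested.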

How the data were processed

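Per the labels' protocols, total RNA was treated with DNase and made into strand-specific libraries, adapters were removed with cutadapt 1.8.1, reads were aligned to mm10 with STAR 2.7.7a, and RSEM 1.3.0 gave gene values with Gencode release M21. The deposited counts are whole numbers per gene, not normalized, and the deposited TPM values are scaled by the authors to the same total per tumour. Columns were matched to tumours by the library names in the labels. Each of the 33 members is its only protein-coding row.

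Counts of all genes were tested with edgeR 4.0.16 (R 4.3.3): default expression filter, TMM scaling, robust quasi-likelihood F test, Benjamini-Hochberg adjustment over 22056 genes, calls at an adjusted p under 0.05. Each SE was derived from the log2 change and its F statistic. Levels are compared between genes in TPM. Total counts set the precision: 3 counts, the floor for a gene at 0, are 0.0290 to 0.0821 CPM by tumour, for counting error only. Alternatives were DESeq2 1.42.0, limma 3.58.1 on voom weights or log TPM, other scalings and filters, removal of the trend with effective length (counts over TPM), a replicate block and leaving out each tumour; the sum without Eno3 was added after seeing the data. Members and lists were chosen with earlier results of these data known. Per-tumour values are given for members of at least 1 TPM on average and for the isoform families; from other lists up to 4 genes each, those called and then the most abundant; Epcam, Pax7, Myf6, Myog and Adipoq were named after their values were seen. The olfactory receptor comparison was also added after seeing the data.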

Additional observations from a re-analysis of the deposited data

How the results depend on the processing

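Without PV-10 tumour 3 the members called were 13, and on leaving out any other tumour 0, while the count over all genes ran from 1 to 11399 on leaving out a tumour, against 1122 with all 6. Genes called and members called, each of those tested, were 2537 of 22056 and 1 of 31 with DESeq2 size factors. They were 8160 of 27568 and 7 of 33 with DESeq2. Limma called 4037 of 22056 and 1 of 31 on log2(TPM + 1), and 3998 of 22056 and 1 of 31 on log2(TPM + 0.1). With no low-count filter they were 4664 of 39195 and 2 of 33. With a mean count of at least 50 they were 2705 of 15787 and 3 of 25, and with protein-coding genes alone 2779 of 16153 and 2 of 31. Library size alone called 2441 genes, limma-voom 2016 and removal of the effective length trend 2, each with 0 members. Each tumour's log2 CPM, as a deviation from the mean of the tumours, was also fitted against log2 effective length. The slopes were -0.0786, -0.0241 and -0.0940 in PV-10 tumours 1, 2 and 3, against 0.0553, 0.105 and 0.0367 in PBS tumours 1, 2 and 3. The groups thus differed in this trend, and its part in the differences between CPM and TPM was not tested. Same-numbered tumours deviated together at correlations of -0.0486, 0.0711 and 0.0722. Other pairings were not compared, so these values cannot decide whether the numbers pair the tumours, and the labels give no pairing. The replicate block called 2872 genes and 1 member, Myh1. DESeq2 called Mylpf, Tnnt3, Tnni2, Myoz1, Pvalb, Eno3 and Pygm, 7 of 33 members, all higher. It called 21.2% of all genes higher and 29.6% in either direction. Calls over all genes split into 699 higher and 423 lower, but into 980 and 1461 with library size alone, 835 and 1181 in limma-voom and 251 and 3786 with log2(TPM + 1), where the median log2 change of all genes was 0.30, 0.21, 0.21 and -0.21 in these 4 fits. The members' median log2 change stayed above 0 in each of these settings, from 0.36 with log2(TPM + 1) to 4.45 without PBS tumour 1, against 1.93, and leaving out a tumour took it from 0.95 to 4.45. The log2 ratio of summed TPM was 0.98, from 0.27 to 1.33 on leaving out a tumour, and 2.18 without Eno3. The fast share differed by 21.5 percentage points in TPM, from 11.0 to 38.3 on leaving out a tumour, and by 0.845 points in CPM. Of 552 values of single members 32 changed sign, none of them called, over 11 members. In limma-voom, Myh2 was at 1.63, Xirp2 at 1.87 and Mb at -1.18. With limma on log2(TPM + 1), Myh2 was at 0.09, Tnni1 at -0.35, Tnnc1 at -0.02 and Mb at -0.05. With log2(TPM + 0.1), Myh2 was at 0.49, Tnni1 at -0.67, Tnnc1 at -0.38, Xirp2 at 0.18 and Mb at -0.38. With the effective length trend removed, Tnni1 was at -0.24, Ttn at -0.44 and Cacna1s at -0.15. With the replicate block, Myh2 was at 2.09, Tnnc1 at -0.06, Xirp2 at 2.38 and Cacna1s at -0.50. Xirp2 was at 0.03 both with a mean count of at least 50 and with protein-coding genes alone. On leaving out a tumour, Myh1 ran from -3.71 to 0.61, Myh2 from -1.54 to 9.86, Myh3 from -0.29 to 8.83, Tnnt1 from -0.91 to 0.38, Xirp2 from -1.18 to 5.98, Des from -0.67 to 0.10, Cacna1s from -1.22 to 5.70 and Mb from -0.22 to 1.69. The cause of these turns was not tested.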

Other observations

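Counts and TPM did not keep 1 ratio for titin, whose transcripts differ greatly in length. Set against the same ratio for Eno3, Ttn had 29.1, 22.0 and 17.3 times as many counts per TPM in PV-10 tumours 1, 2 and 3, against 24.0, 55.8 and 7.18 times in PBS tumours 1, 2 and 3. PBS tumour 2 had 1575 Ttn counts at 0.220 TPM, and PBS tumour 3 had 327 counts at 0.310 TPM, so that these 2 tumours change order between the units.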
